A study of Mus musculus with 4 samples.

Results

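Saa3, Saa1, Hp, Orm1, Slpi and Lrg1 encode proteins of the acute phase response, and their transcripts were followed here in leukocytes of the inflamed gut wall. These 6 of 16308 genes in the count tables were chosen because leukocytes expressed them in these data, so their levels and fold changes are a description and support nothing by themselves. Leukocytes, sorted as CD45+ cells by the surface protein that Ptprc encodes, had been taken from the muscularis, the outer muscle layer of the mouse small intestine, at 24 h and 72 h after intestinal manipulation, a surgical handling of the gut that inflames this layer. WT animals were C57BL/6J, and CCR2 KO animals were of the strain B6.129S4-Ccr2tm1Ifc/J, which carries a targeted allele of the chemokine receptor gene Ccr2 in all cells. All animals were females aged 12 weeks, all had undergone the surgery, and each of the 4 groups was 1 library of cells pooled from several mice. No unoperated group was analysed here.

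The acute phase response is the change in secreted proteins that follows tissue injury. The liver is its best known source, where IL-6, IL-1 and TNF act through STAT3, NF-kB and C/EBP factors on the genes of these proteins. Several members are also made outside the liver: Saa3 is a serum amyloid A of mouse macrophages and other extrahepatic cells, and haptoglobin, SLPI and LRG1 are known from the granules or secretions of neutrophils.

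The 4 libraries held 5811 cells, of which 15 with transcripts of non-immune cells and without Ptprc were left out (9 and 6 from CCR2 KO at 24 h and 72 h). The other 1674 and 1765 cells of WT and CCR2 KO at 24 h, and 1315 and 1042 at 72 h, were sorted into classes by marker genes, and "-like" below means no more than that. Depth was unequal, with 21206308 and 10436694 unique molecular identifiers (UMIs, counted transcripts) in the WT and CCR2 KO libraries at 24 h and 16600493 and 9736725 at 72 h. Monocyte/macrophage (Mφ)-like cells were 1286 and 216 cells at 24 h and 867 and 129 at 72 h, with median UMIs of 10139 to 15803 per cell, and neutrophil-like cells were 307 and 1335 at 24 h and 192 and 590 at 72 h, with medians of 2049 to 3378. All 14 monocyte/Mφ markers and all 12 neutrophil markers reached 20 CPM (UMIs of a gene per 1000000 UMIs of the class) in their class in every library. The targeted gene Ccr2 was at 759 CPM in WT and 95.7 CPM in CCR2 KO at 24 h in monocyte/Mφ-like cells and at 1064 and 103 CPM at 72 h, and whether its counted 3′ end lies in the deleted part is not given in the sources used here. Pairs of libraries shared 0 or 1 cell barcodes. Levels are CPM of a class with 95% intervals that cover counting error only, and since there was 1 library per group, no difference has a replicate check and no test was made.

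Promoter sequences were at hand for Saa3, Saa1, Slpi and Lrg1 but not for Hp and Orm1. The 3 printed are those that held a match to the motif marked below, so no pattern among the members is read from them. In WT at 24 h every member, printed or not, had a higher level in 11 cells than in the other cells of their sub-cluster. Those cells, described further on, were picked by their Saa3 share, and only 5 of them had Saa1 UMIs. The sequences are those of RefSeq on GRCm38.p6, from 250 bases before to 50 bases after the annotated start, at chr7:46715627-46715926 for Saa3, chr7:46742931-46743230 for Saa1 and chr2:164356458-164356757 for Slpi, all on the minus strand and printed in the direction of transcription. Capitals mark matches to TTNNGNAA, a loose form of the site of C/EBP factors, on either strand.
Saa3: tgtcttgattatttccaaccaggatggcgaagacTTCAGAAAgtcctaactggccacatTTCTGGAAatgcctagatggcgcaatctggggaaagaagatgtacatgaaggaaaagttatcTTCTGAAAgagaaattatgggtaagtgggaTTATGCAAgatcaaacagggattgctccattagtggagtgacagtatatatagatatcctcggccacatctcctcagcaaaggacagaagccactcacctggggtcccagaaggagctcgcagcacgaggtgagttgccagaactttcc
Saa1: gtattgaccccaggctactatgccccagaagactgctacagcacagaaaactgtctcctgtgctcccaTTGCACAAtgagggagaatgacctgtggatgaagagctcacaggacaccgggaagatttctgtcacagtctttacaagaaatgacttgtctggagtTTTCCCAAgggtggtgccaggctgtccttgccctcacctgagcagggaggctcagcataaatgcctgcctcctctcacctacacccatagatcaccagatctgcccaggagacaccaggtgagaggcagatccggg
Slpi: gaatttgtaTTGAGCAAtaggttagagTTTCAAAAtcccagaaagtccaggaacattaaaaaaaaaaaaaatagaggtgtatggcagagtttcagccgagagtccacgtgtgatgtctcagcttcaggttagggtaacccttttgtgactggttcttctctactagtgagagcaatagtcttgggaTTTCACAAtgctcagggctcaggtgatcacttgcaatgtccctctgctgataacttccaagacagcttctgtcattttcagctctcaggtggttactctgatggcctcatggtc
Saa3 held 4 matches, at 216, 191, 129 and 99 bases before the start. Slpi held 3 and Saa1 held 2, and the promoter of Lrg1 at chr17:56121897-56122196 held 0. At least 1 match stood in 40.7% of 32851 mouse promoters of the same length, at least 3 in 4.29% and at least 4 in 1.16%. No match to the NF-kB motif as searched, to TTCNNNGAA (STAT) or to TGANTCA (AP-1), which 20.7%, 8.30% and 7.81% of promoters held, stood in the 4 windows on either strand, so none overlapped the capitals. These are matches of letters and not shown sites of binding. Saa3 and Saa1 lie near each other on chromosome 7, at 46711998 to 46715700 and 46740497 to 46742980 of GRCm38, both on the minus strand. In the last 500 bases of the transcripts, where 3′ reads fall, 23.7% of the 50-base words of Saa1 were shared with other genes (Saa2, Saa3), as were 32.6% of those of Orm1 (Orm2, Orm3) and 6.57% of those of Saa3. Counts of Saa1 and Orm1 are therefore uncertain, while Hp, Slpi and Lrg1 shared none.

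Each member was carried by myeloid cells, and the class with the highest level depended on the gene. Of the 17 pairs of a member and a library with at least 20 CPM in some class, the level was highest in neutrophil-like cells in 13. Saa3 made up the other 4 pairs: its level was highest in monocyte/Mφ-like cells in 3 libraries and, in WT at 72 h, in B cell-like cells (380 CPM), where 114 of 120 UMIs were in 1 cell. This amyloid was at 3456 CPM (95% interval 3430 to 3482) there in WT at 24 h, against 1093 CPM (1019 to 1170) in neutrophil-like cells, 9.54 CPM in dendritic cell-like cells and 27.5 CPM, from 3 UMIs, in T, NK and innate lymphoid cells pooled as a background. Haptoglobin, the plasma protein that binds free haemoglobin, showed the other order. Hp was at 442 CPM (433 to 451) in monocyte/Mφ-like and 3428 CPM (3297 to 3563) in neutrophil-like cells of that library, with 0 UMIs in the background cells. Slpi, an inhibitor of neutrophil elastase and cathepsin G, was at 221 CPM (214 to 228) and 2449 CPM (2338 to 2563) in those 2 classes. Lrg1, a leucine-rich glycoprotein that acts on TGF-beta signalling in vessels, was at 59.8 CPM (56.4 to 63.4) and 1233 CPM (1155 to 1315). In both cases the neutrophil-like level was the higher one, and the intervals of the classes were far apart. Orm1, which encodes the plasma carrier orosomucoid, was at 9.59 CPM (8.26 to 11.1) and 82.8 CPM (63.5 to 106). Saa1, the classical liver serum amyloid A, was at 17.2 CPM (15.4 to 19.1) in monocyte/Mφ-like cells and at 0 in every neutrophil-like class, where 3 UMIs would be 3.99 CPM in WT at 24 h.

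**Figure D1:**
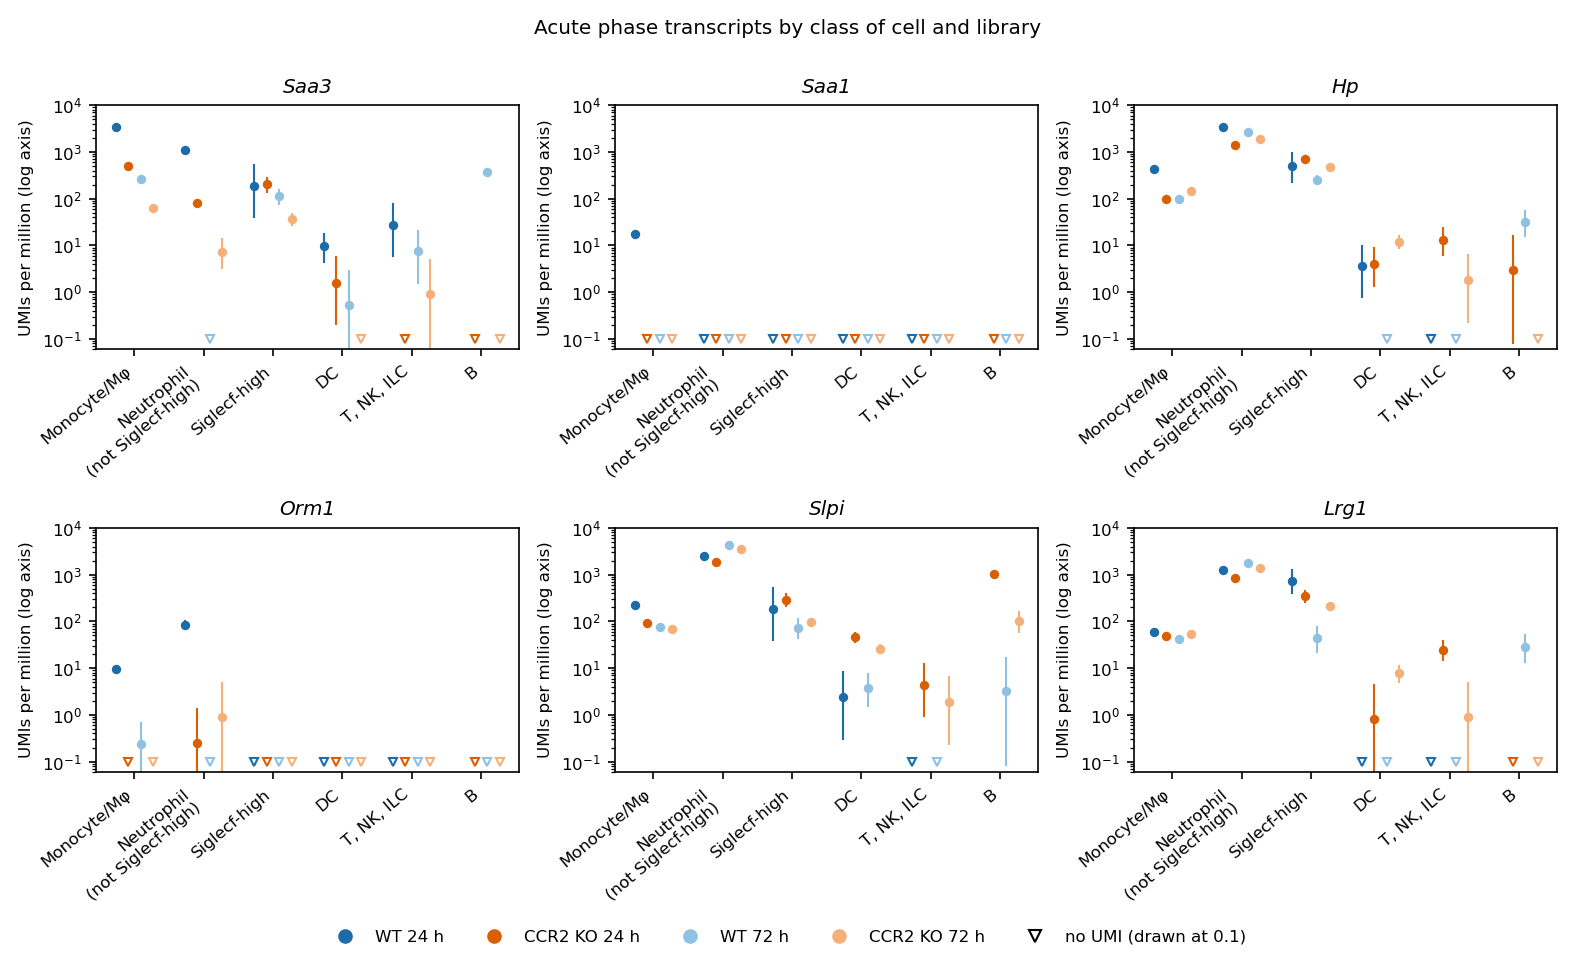
Level of each member in CPM (log axis) by cell class and library, with the Siglecf-high cluster of the neutrophil-like cells set apart. Points are libraries, bars are 95% intervals of counting error, and triangles at the foot mark classes with 0 UMIs. Saa3 was at 3456 CPM in monocyte/Mφ-like cells of WT at 24 h, above its level in neutrophil-like cells in every library, while Hp, Slpi and Lrg1 were highest in neutrophil-like cells outside the Siglecf-high cluster.

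Lymphocytes and dendritic cells were near 0 for most members, with exceptions that came largely from single cells. In dendritic cell-like cells of CCR2 KO, 46 of 57 Slpi UMIs at 24 h and 20 of 21 Lrg1 UMIs at 72 h lay in 1 cell. Of the 71 Slpi UMIs of the latter at 72 h (26.0 CPM, with 3.75 CPM in WT), 41 were in 1 of 12 cells that had any, and of its 33 Hp UMIs (12.1 CPM, with 0 in WT) 24 were in 1 of 7 cells. Among background cells Lrg1 in CCR2 KO at 24 h was at 24.7 CPM, and its 17 UMIs were all in 1 cell. In B cell-like cells 346 of 348 Slpi UMIs of CCR2 KO at 24 h lay in 1 cell. Doublets had not been taken out, since the caller tried marked 10 of 5796 cells and had not worked, and their part in these single cells was not tested.

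Saa3 was unevenly spread over the cells that carried it. In WT at 24 h there were 67846 Saa3 UMIs in 759 of 1674 cells, and the 17 cells with most, 1% of the library, held 47.3% of them. The highest cell had 4835 Saa3 UMIs, which were 21.9% of all its UMIs. By comparison, the 17 highest cells held 15.1% of the Hp UMIs of that library, 18.1% of Lrg1 and 31.7% of Slpi, but 95.6% of Orm1 and 100% of Saa1. Cells in which Saa3 made up at least 2% of all UMIs numbered 41 in WT and 4 in CCR2 KO at 24 h, and 7 and 0 at 72 h. Of the 41 cells, 39 were monocyte/Mφ-like, and 23 belonged to a sub-cluster led by Cxcl3, Sod2, Il1a and Fpr1 and 11 to one led by Cxcl13, Prg4, Alox15 and Marco. The highest share of Saa3 in any cell was 5.66% in CCR2 KO at 24 h, 4.72% in WT at 72 h and 0.649% in CCR2 KO at 72 h.

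**Figure D2:**
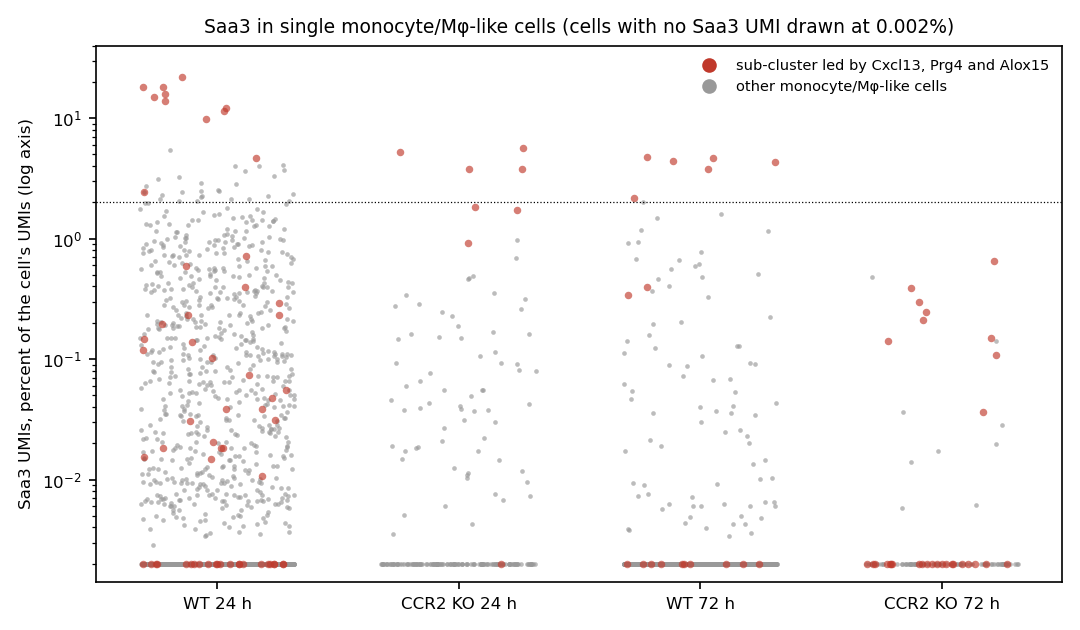
Saa3 UMIs as a percentage of all UMIs (log axis) of each monocyte/Mφ-like cell, by library, with cells of the Cxcl13, Prg4 and Alox15 sub-cluster in red, cells without Saa3 at the foot and a dotted line at 2%. The highest cell reached 21.9% in WT at 24 h and 0.649% in CCR2 KO at 72 h.

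The 11 cells of the Cxcl13, Prg4 and Alox15 sub-cluster carried most of the rarer members as well. Against the 48 other WT 24 h cells of that sub-cluster, Saa3 was at 138119 and 742 CPM, and Saa1 was at 1664 and 0 CPM, with UMIs in 5 of the 11 cells and 183, 74 and 68 of them in 3 cells. Orm1 was at 911 CPM in the 11 cells and 0 in the 48. Slpi was at 5862 and 130 CPM, Hp at 4686 and 233 CPM, and Lrg1 at 483 and 77.7 CPM. All 6 members were thus higher in the 11 cells, which were picked by their Saa3 share. Other genes of the same cells differed too, among them Lcn2, Prg4 and C4b, which were also leading genes of the sub-cluster. Lcn2, an iron-chelating acute phase protein, was at 7459 and 4.71 CPM, Prg4, which encodes lubricin, at 3709 and 0 CPM, and the complement gene C4b at 2045 and 0 CPM. Il1b went the other way, at 137 and 653 CPM, and Fn1 hardly differed, at 5612 and 5472 CPM. Median UMIs per cell were 18661 in the 11 cells and 6965.5 in the 48. Gata6, a transcription factor known from macrophages of the serous cavities, had UMIs in 7 of the 11 cells and in none of the 48. Where in or on the gut wall these cells lay was not tested. Mesothelial markers were nearly absent, with 3 of 4 genes above 0 and 9 UMIs in the WT 24 h library and 0 of them in the sub-cluster. The 1 hepatocyte marker held by the tables had 0 UMIs in that library.

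To follow such cells in the other libraries, cells with UMIs of at least 2 of Prg4, Alox15 and Gata6 were counted. These genes were picked after seeing their values in the cells chosen by Saa3, so this choice is not independent of the members. There were 11 in WT and 4 in CCR2 KO at 24 h, and 5 and 1 at 72 h. The 11 of WT matched the 11 Saa3-rich cells above in the count of every member (27145 Saa3 UMIs), so they are no second observation. In WT at 24 h they held 98.2% of the Saa1 UMIs of the library, 72.2% of Orm1, 40.01% of Saa3, 18.8% of Slpi, 8.27% of Hp and 4.56% of Lrg1. Saa3 was at 138119 CPM in these cells in WT and 39952 CPM in CCR2 KO at 24 h, and at 22116 and 1412 CPM at 72 h. Slpi was at 5862, 4949, 11787 and 282 CPM in the same order, where the last value was 1 UMI in 1 cell. In the other monocyte/Mφ-like cells Saa3 was at 2077 and 405 CPM at 24 h and at 186 and 60.1 CPM at 72 h, so the order of the libraries was the same without them. Among the cells kept, no Saa1 UMI was found outside WT at 24 h, where 3 UMIs in all monocyte/Mφ-like cells would be 0.832, 0.244 and 1.84 CPM in CCR2 KO at 24 h, WT at 72 h and CCR2 KO at 72 h.

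Comparing genotypes at 24 h asks what monocyte/Mφ-like cells present without CCR2 carried. Saa3 was at 3456 CPM in WT and 496 CPM in CCR2 KO, 6.97-fold lower in CCR2 KO with a log2 ratio of -2.80 (95% interval -2.87 to -2.73). Hp was at 442 and 100 CPM (log2 ratio -2.14, -2.29 to -1.99), and Slpi at 221 and 92.9 CPM (-1.25, -1.41 to -1.09). Lrg1 differed little, at 59.8 and 48.8 CPM (-0.29, -0.53 to -0.06). Saa1 and Orm1 had 333 and 186 UMIs in WT and 0 in CCR2 KO, at least 20.6-fold and at least 11.5-fold lower when 3 UMIs are put in place of 0. These bounds rest on few cells: 3 cells held 183, 74 and 68 of the Saa1 UMIs, and without the 5 cells with most UMIs of the gene the log2 bound of Orm1 was -0.17 and Saa1 gave none. With a gene counted as lower or higher at a 2-fold difference and at least 20 CPM in 1 of the libraries, 3 of the 4 members that reached that level were lower, and 0 were higher, where 1.35% of 5856 genes were lower, 2.7% higher, and the median log2 ratio was -1.69 for the 4 members and -0.08 for all genes. Since the members had been chosen with these values known, nothing is read from that difference. After each cell was thinned to 1000 UMIs, 31.8% of WT and 18.96% of CCR2 KO cells had a Saa3 UMI and 25.1% and 8.53% had one of Hp, whereas unthinned shares were 54.98% and 34.7%, and 63.9% and 31.0%. In the background cells of WT and CCR2 KO thinned alike, whose median UMIs were 4817 and 6834, 5% and 0% had Saa3. Weighting each cell equally made the log2 ratio of Saa3 -1.10 and that of Slpi -0.45, which is no longer 2-fold.

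The sub-clusters that made up the class differed between the libraries, so the comparison was repeated inside them. In WT at 24 h the largest were the Cxcl3 and Sod2 sub-cluster with 317 cells, one led by Pf4, Ppbp and Fabp5 with 308, a Ly6c monocyte-like one led by Ms4a4c and Plac8 with 215 and one led by the interferon genes Cxcl10, Rsad2 and Ifit3 with 163. In CCR2 KO the largest were one led by Fabp4, Spp1 and Inhba with 101 cells and a Cx3cr1-like one led by Mmp13 and Ch25h with 48, while the Cxcl3 and Sod2 sub-cluster had 4 cells. That sub-cluster had Saa3 at 5123 CPM, Hp at 768 CPM and Slpi at 390 CPM in WT and held 38.0% of the Saa3 UMIs of the library. In each of the 5 sub-clusters with at least 10 cells in both libraries, Saa3 was lower in CCR2 KO. The size ranged from 389 and 316 CPM in WT and CCR2 KO in the Fabp4 and Spp1 sub-cluster (log2 ratio -0.30, -0.49 to -0.11) to 777 and 23.0 CPM in the Ms4a4c and Plac8 sub-cluster (-5.08, -7.36 to -3.53). The last CCR2 KO level came from only 3 UMIs in 11 cells. Hp was likewise lower in all 5, for example 1143 and 767 CPM in a second Ly6c monocyte-like sub-cluster led by S100a8, Ifitm6 and Chil3 (-0.57) and 109 and 41.0 CPM in the Pf4 and Fabp5 sub-cluster (-1.41). Slpi did not go one way: it was at 76.9 and 149 CPM in the Pf4 and Fabp5 sub-cluster (0.96) and at 300 and 150 CPM in the S100a8 and Chil3 sub-cluster (-0.998). Lrg1 was at 378 and 831 CPM in the latter (1.14), the only one of the 5 in which its interval left 0.

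At 72 h the genotypes differed in Saa3 but not in the same way in the other members. Saa3 was at 259 CPM in WT and 63.1 CPM in CCR2 KO monocyte/Mφ-like cells (log2 ratio -2.04, -2.34 to -1.76), from 3190 and 103 UMIs. Hp was at 98.6 and 149 CPM (0.59, 0.39 to 0.79). Slpi was at 75.9 and 70.4 CPM (-0.11, -0.40 to 0.17), and Lrg1 was at 41.5 and 53.3 CPM (0.36, 0.01 to 0.69). So 1 of 4 members counted as lower and 0 as higher, where 2.33% of all genes were lower and 4.32% higher, with a median of 0.13 for the members and 0.11 for all genes. Inside sub-clusters the direction of Saa3 was not uniform. In the Cxcl13, Prg4 and Alox15 sub-cluster it was at 8366 CPM in WT (18 cells) and 325 CPM in CCR2 KO (30 cells), while in the S100a8 and Chil3 sub-cluster, with 30 and 12 cells, it was at 144 and 276 CPM (0.94). Slpi was at 85.8 and 365 CPM (2.09) in the latter and at 3937 and 217 CPM in the former. The cells of the former were unlike in the 2 libraries. In WT 6 of the 18 cells held 824 Saa3 UMIs and had Prg4 at 3232 CPM. The 30 CCR2 KO cells had 0 Prg4, 1 Cxcl13 and 5 Alox15 UMIs, and the other 12 WT cells had 2, 0 and 0. In WT at 24 h the 48 cells of the sub-cluster with under 2% Saa3 had 0 UMIs of each of these genes. The name of the sub-cluster thus hardly describes these cells in either genotype. The CCR2 KO class had 129 cells, and its values moved with few of them: without the 5 cells with most UMIs of the gene the log2 ratio of Hp was -0.12 and that of Lrg1 -1.71, and with cells of at most 5% mitochondrial UMIs they were 1.90 and 1.81. The Saa3 ratio was -0.68 when clusters were drawn at a resolution of 2, and 2.13 when the cells with non-immune transcripts were kept, since 1 of them held 1888 Saa3 UMIs.

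Between 24 h and 72 h the class level of Saa3 was lower at the later time in both genotypes, although the log2 ratio in CCR2 KO was 1.20 when the cells with non-immune transcripts were kept. In WT the log2 ratio of 72 h to 24 h was -3.74 (-3.79 to -3.69) for Saa3, -2.16 (-2.25 to -2.08) for Hp, -1.54 (-1.65 to -1.44) for Slpi and -0.53 (-0.68 to -0.38) for Lrg1, and Saa1 was at least 70.5-fold lower. The log2 bound behind that last value was -0.35 without the 5 cells with most Saa1 UMIs, -0.38 without the Cxcl13, Prg4 and Alox15 sub-cluster and -0.29 with clusters drawn at a resolution of 2. In CCR2 KO it was -2.98 (-3.28 to -2.69) for Saa3, 0.57 (0.33 to 0.81) for Hp, -0.40 (-0.72 to -0.09) for Slpi and 0.13 for Lrg1, which became -0.10 under TMM scaling. That is 3 of 4 members lower and 0 higher in WT, where 6.68% and 6.82% of genes were, and 1 of 4 lower and 0 higher in CCR2 KO, where 4.61% and 9.48% were. In the S100a8 and Chil3 sub-cluster, present at both times in WT with 89 and 30 cells, Saa3 was at 1781 and 144 CPM (-3.63) while Hp was at 1143 and 911 CPM (-0.33). At 72 h the WT class was made up of other sub-clusters, the largest being a Cd206-like one led by Fcrls and Selenop (321 cells), one led by Ear2, Mgl2 and MHC class II genes (175), a Timp2-like one led by Retnla and Cd5l (124) and a Cx3cr1-like one led by Cd72 (92). Saa3 was at 868 CPM in the Timp2-like cells, which held 47.3% of the Saa3 UMIs of that library, at 220 CPM in the Ear2 and Mgl2 cells, at 5.48 CPM in the Cd206-like cells and at 0 in the Cd72 sub-cluster. In CCR2 KO at 72 h the largest were one led by Igkc, Jchain and Stmn1 (56 cells) and the Cxcl13, Prg4 and Alox15 sub-cluster (30, with 0 Prg4 UMIs), in which Saa3 was at 3.34 and 325 CPM.

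Neutrophil-like cells were the class in which Hp, Slpi and Lrg1 were found together. At 24 h Hp was at 3428 CPM in WT and 1356 CPM in CCR2 KO (log2 ratio -1.34, -1.41 to -1.27). Slpi was at 2449 and 1782 CPM (-0.46, -0.53 to -0.38), and Lrg1 at 1233 and 830 CPM (-0.57, -0.68 to -0.47). Saa3 was at 1093 and 86.3 CPM (-3.66, -3.84 to -3.48) and came from 39 of 307 WT cells, 1 of which held 387 of the 818 UMIs. Orm1 had 62 UMIs in WT and 1 in CCR2 KO (-8.44, -13.8 to -5.91). Those of WT were in 11 of 307 cells, of which 1 held 21 and another 17. Over the alternatives the log2 ratio of Orm1 ranged from -8.51 to -4.07. Of 5 members at 20 CPM or more, 3 counted as lower (Saa3, Hp and Orm1) and 0 as higher, against 2.3% and 6.46% of all genes, and the medians were -1.34 and 0.12. After thinning, 75.6% of WT and 50.6% of CCR2 KO cells had a Hp UMI (80.1% and 67.9% unthinned), while in the thinned background cells the share was 0% and 3.23%.

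The lower Hp level at 24 h also appeared within neutrophil-like sub-clusters. In the granule gene sub-cluster led by Chil3, Lcn2 and Ngp, Hp was at 4815 CPM in WT (111 cells) and 3094 CPM in CCR2 KO (20 cells), a log2 ratio of -0.64. It was at 3715 and 1946 CPM (-0.93) in a second granule gene sub-cluster led by Retnlg, Ly6g and Mmp8, at 2653 and 1805 CPM (-0.56) in the interferon gene sub-cluster led by Ifit3 and Rsad2, and at 1614 and 1305 CPM (-0.31) in one led by Nt5e and Cpeb2. Only in the Clec12a and Car2 sub-cluster was the order the other way, at 923 and 1153 CPM (0.32), with an interval that included 0. Slpi and Lrg1 were lower beyond counting error in the interferon gene sub-cluster, by -0.55 and -0.67, and Lrg1 was higher (0.82) in the Clec12a and Car2 cells.

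At 72 h all 4 members above the minimum level were lower in CCR2 KO neutrophil-like cells, and 1 of them by 2-fold. Hp was at 1486 and 1166 CPM (log2 ratio -0.35, -0.47 to -0.23), Slpi at 2292 and 1734 CPM (-0.40, -0.50 to -0.30) and Lrg1 at 929 and 781 CPM (-0.25, -0.40 to -0.10). Saa3 was at 54.3 and 22.5 CPM (-1.27, -1.98 to -0.53), but 23 of its 26 WT UMIs were in 1 cell. Against 1.69% of genes lower and 3.37% higher, that 1 member counted as lower, and none did without the 5 cells with most UMIs of the gene. When the libraries were clustered separately, the log2 ratios of Hp, Slpi and Lrg1 were 0.21, 0.38 and 0.47 instead, and without the Siglecf-high cluster described next Saa3 had 0 UMIs in WT and 8 (7.30 CPM) in CCR2 KO. From 24 h to 72 h Saa3 was lower in both genotypes (-4.33 in WT, -1.94 in CCR2 KO), Hp was lower in WT (-1.21) and at -0.22 in CCR2 KO, and Slpi and Lrg1 had log2 ratios of -0.10 and -0.41 in WT and -0.04 and -0.09 in CCR2 KO. Thus 3 of 5 members were lower in WT (4.86% of genes) and 1 of 4 in CCR2 KO (3.74%), with 0 higher in either, where 31.5% and 22.7% of genes were higher. The median of all genes moved by 0.56 and 0.40 between these times, so relative to other genes of the whole class the members stood lower than these ratios show. With TMM scaling Hp was at -1.87 in WT and Slpi at -0.76. Without the Siglecf-high cluster the medians of all genes were 0.21 and -0.11, so this standing depends on the make-up of the class.

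A cluster high in Siglecf took a larger share of the neutrophil-like cells at 72 h, with 10 and 57 cells of WT and CCR2 KO at 24 h and 106 and 375 at 72 h. Siglecf, which encodes a sialic acid-binding receptor, was at 186 to 688 CPM in it and at 38.2 to 101 CPM in the other neutrophil-like cells. The eosinophil genes Prg2, Il5ra and Ear6 were at 0 there, and Ccr3 had 1 UMI in WT (4.32 CPM) and 3 in CCR2 KO (2.56 CPM) at 72 h. Alox15, also listed for eosinophils, had 7 UMIs (5.97 CPM) there in CCR2 KO at 72 h and 0 in the other libraries. S100a8 was at 7123 to 12390 CPM in the cluster and higher, at 28540 to 81327 CPM, in the other neutrophil-like cells. Hp, Slpi and Lrg1 were low in this cluster: at 72 h Slpi was at 73.5 CPM in WT and 95.5 CPM in CCR2 KO, against 4363 and 3489 CPM in the other neutrophil-like cells. Hp was at 255 and 479 CPM against 2636 and 1902 CPM, and Lrg1 at 43.2 and 213 CPM against 1756 and 1389 CPM. Saa3 went the other way at 72 h. Neutrophil-like cells had 26 Saa3 UMIs in WT, most in 1 cell, and 51 in CCR2 KO, of which 0 and 8 lay outside this cluster. After thinning, all 3 of Hp, Slpi and Lrg1 were detected in 33.5% and 17.7% of the other neutrophil-like cells in WT and CCR2 KO at 24 h and in 37.6% and 34.8% at 72 h. The share was 1.01% and 1.43% in the Siglecf-high cells at 72 h, and 0% to 0.901% in monocyte/Mφ-like cells of the 4 libraries.

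Without the Siglecf-high cluster, an alternative added after seeing the data, Slpi and Lrg1 were higher at 72 h than at 24 h. The log2 ratio of Slpi was 0.80 in WT (2499 and 4363 CPM) and 0.93 in CCR2 KO (1831 and 3489 CPM), and that of Lrg1 was 0.50 and 0.72, where the medians of all genes were 0.21 and -0.11. Hp was at -0.41 in WT and 0.47 in CCR2 KO. Saa3 had 815 UMIs at 24 h and 0 at 72 h in WT, at least 91.9-fold lower. Within the cluster of cells that shared Siglecf when neutrophil-like cells were clustered alone, Hp, Slpi and Lrg1 were higher in CCR2 KO at 72 h, at 485 and 245 CPM (0.98), 98.6 and 36.3 CPM (1.44), and 216 and 40.9 CPM (2.40) in CCR2 KO and WT. In the Retnlg and Ly6g granule gene cells of the same libraries they were lower, at 2575 and 3862 CPM (-0.58), 3878 and 4897 CPM (-0.34) and 2035 and 2350 CPM (-0.21).

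**Figure D3:**
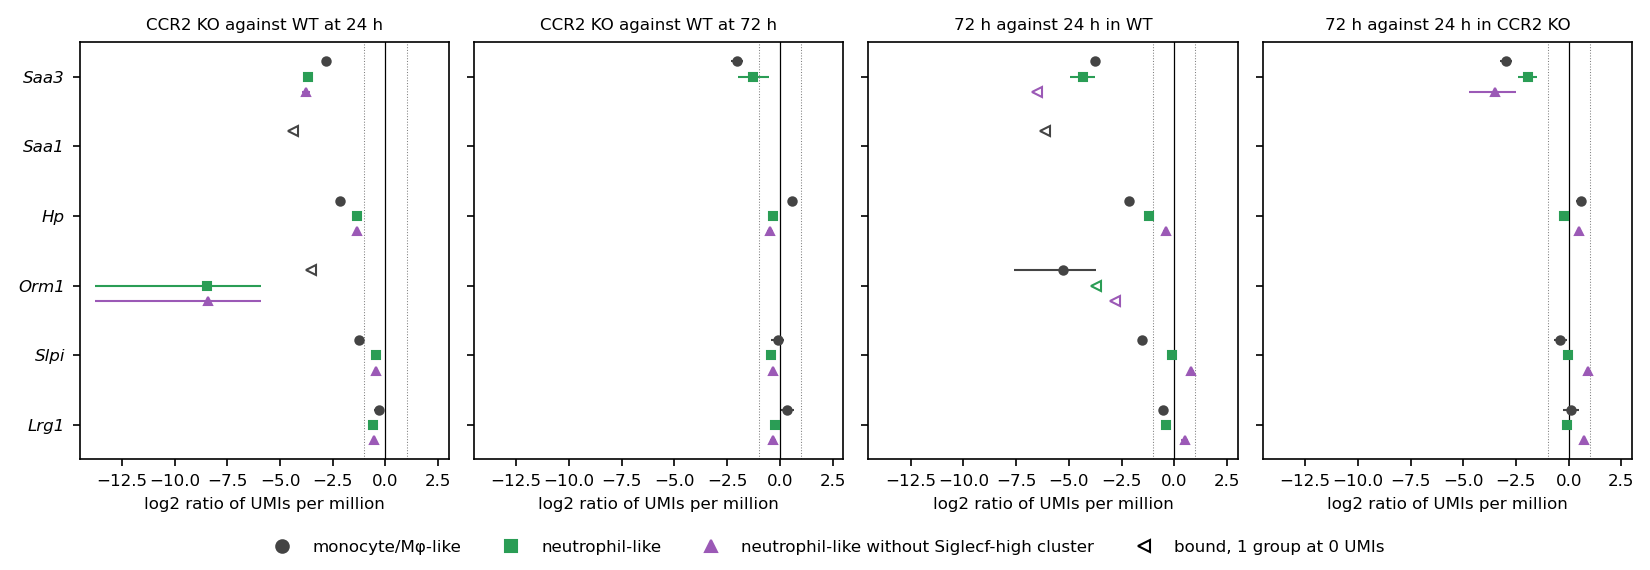
log2 ratio of each member between libraries in monocyte/Mφ-like cells, in neutrophil-like cells and in the latter without the Siglecf-high cluster, with 95% intervals of counting error, a line at 0 and dotted lines at a 2-fold difference. Open triangles are bounds where 1 library had 0 UMIs, also for members below the minimum level, and members with neither a ratio nor a bound are not drawn. Saa3 lies below 0 in every comparison drawn, and Slpi at 72 h against 24 h moves from -0.10 to 0.80 in WT when the Siglecf-high cluster is left out.

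**Figure D4:**
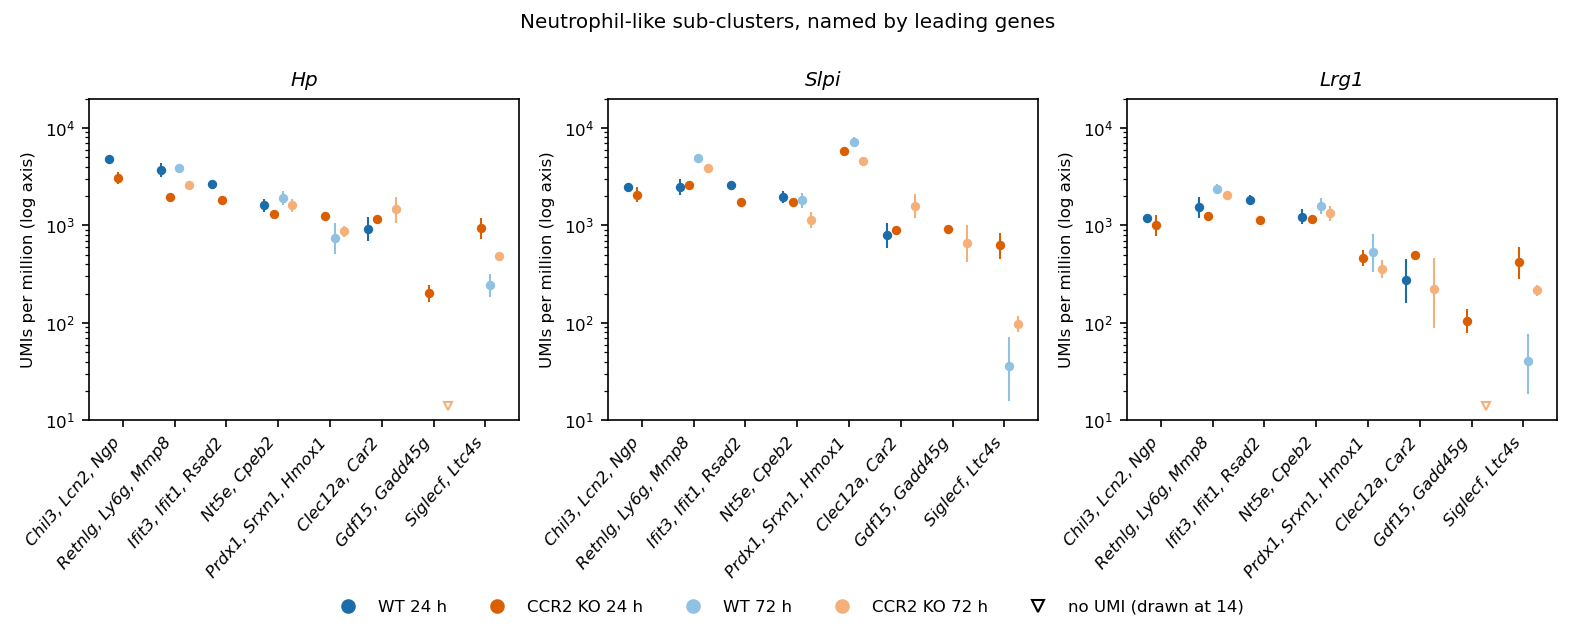
Level of Hp, Slpi and Lrg1 in CPM (log axis) in each sub-cluster of the neutrophil-like cells, by library, with 95% intervals of counting error. Libraries with fewer than 10 cells of a sub-cluster are not drawn, and triangles at the foot mark 0 UMIs. Hp was at 4815 CPM in the Chil3, Lcn2 and Ngp sub-cluster of WT at 24 h, and Slpi was at 36.3 CPM in the Siglecf sub-cluster of WT at 72 h.

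Different neutrophil-like sub-clusters led for different members. In the 3 libraries with at least 10 of its cells, Slpi was highest in one led by the oxidative stress genes Prdx1, Srxn1 and Hmox1, at 5766 CPM in CCR2 KO at 24 h and 7128 and 4595 CPM in WT and CCR2 KO at 72 h. Hp was highest in granule gene cells of every library, those led by Chil3, Lcn2 and Ngp at 24 h and those led by Retnlg and Ly6g at 72 h. Lrg1 was highest in the interferon gene cells in WT at 24 h (1832 CPM) and in the Retnlg and Ly6g cells in the other libraries (1242 to 2350 CPM). One led by Gdf15 and Gadd45g, with 153 cells in CCR2 KO at 24 h, had Hp at only 201 CPM and Lrg1 at 105 CPM, with Slpi at 929 CPM.

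Over all cells of a library, the direction of Hp, Slpi and Lrg1 was the opposite of that within neutrophil-like cells. At 24 h Slpi was at 289 CPM in WT and 791 CPM in CCR2 KO (log2 ratio 1.45) and Lrg1 at 98.2 and 354 CPM (1.85), Hp was at 525 and 584 CPM (0.15), and Saa3 was at 3199 and 209 CPM (-3.94). At 72 h Hp was at 117 and 304 CPM (1.38), Slpi at 123 and 430 CPM (1.81), Lrg1 at 58.2 and 196 CPM (1.75) and Saa3 at 204 and 16.2 CPM (-3.65). Thus 2 members counted as higher and 1 as lower at 24 h, where 10.8% and 5.05% of genes did, and 3 as higher and 1 as lower at 72 h, where 7.12% and 5.25% did. Neutrophil-like cells gave 3.53% of the UMIs of WT and 40.3% of those of CCR2 KO at 24 h, and 2.89% and 23.6% at 72 h. With CCR2 KO class levels weighted by the class shares of WT, an alternative also added later, the 24 h log2 ratios were -0.92 for Slpi, -0.41 for Lrg1, -1.91 for Hp and -2.81 for Saa3. Those at 72 h were -0.20, 0.11, 0.31 and -2.10. From 24 h to 72 h over all cells, 3 of 4 members were lower in WT (4.36% of genes, with 6.53% higher) and 1 of 4, Saa3, in CCR2 KO (4.95%, with 6.19% higher). In levels over all cells, a change in the number of cells of a type and in RNA per cell cannot be told apart.

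**Figure D5:**
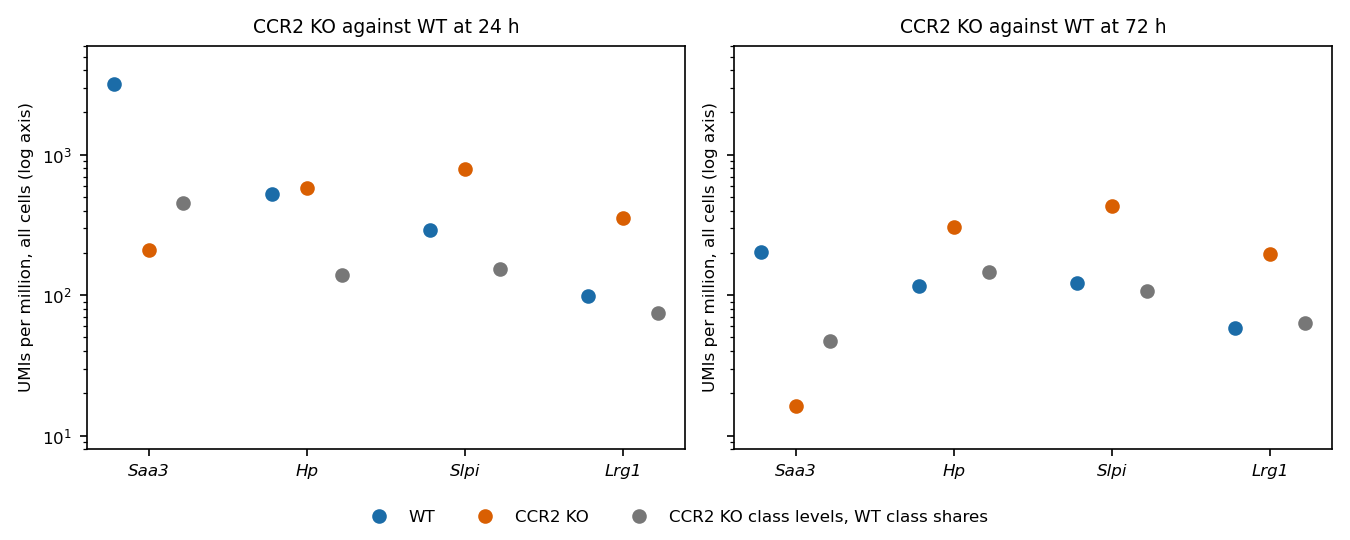
Level of Saa3, Hp, Slpi and Lrg1 over all cells in CPM (log axis) in WT, in CCR2 KO, and in CCR2 KO with its class levels weighted by the class shares of WT, at 24 h and 72 h. Slpi at 24 h was at 289 CPM in WT and 791 CPM in CCR2 KO, and at 153 CPM with the class shares of WT.

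Other genes of the acute phase response and its signals were followed in lists. At 24 h, 1.35% of all genes were lower and 2.7% higher in CCR2 KO monocyte/Mφ-like cells, and 2.3% and 6.46% in neutrophil-like cells. Of 3 other acute phase genes with at least 20 CPM in monocyte/Mφ-like cells at 24 h, Lcn2 was lower in CCR2 KO (262 and 9.71 CPM, log2 ratio -4.76), Cp, which encodes the copper carrier ceruloplasmin, was higher (8.61 and 20.5 CPM, 1.25) and C3 counted as neither (181 and 124 CPM). In neutrophil-like cells Lcn2 was at 13083 and 1203 CPM (-3.44), again with C3 as neither (620 and 541 CPM). Of the inducing cytokines, 1 of 5 was higher at 24 h in the monocyte/Mφ-like cells of CCR2 KO, Tnf at 60.1 and 134 CPM (1.15), and 0 were lower. Il6 was at 31.97 and 30.2 CPM and Il1b at 1403 and 1801 CPM. In neutrophil-like cells 2 of 4 cytokines were higher in CCR2 KO, Il1a (104 and 257 CPM) and Osm (461 and 1044 CPM). None of 5 receptors of these cytokines and none of 10 signalling and transcription factor genes was 2-fold higher or lower in monocyte/Mφ-like cells, and none of 4 and 10 in neutrophil-like cells. Cebpb was at 1815 and 2242 CPM, Cebpd at 134 and 67.1 CPM and Stat3 at 110 and 89.8 CPM in WT and CCR2 KO monocyte/Mφ-like cells.

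Receptors and partners of the member proteins differed in both directions at 24 h. Of 12 compared in monocyte/Mφ-like cells, 3 were lower in CCR2 KO, 1 was higher and 8 counted as neither, where 1.35% and 2.7% of all genes were lower and higher. Cd163, the receptor that takes up haptoglobin bound to haemoglobin, was at 77.7 CPM in WT and 24.7 CPM in CCR2 KO (-1.65), and at 0 in neutrophil-like cells. Fpr2, a formyl peptide receptor that binds serum amyloid A, was at 62.8 and 30.8 CPM (-1.03), and Fpr1 was at 74.7 and 17.5 CPM (-2.10). Cd36, a scavenger receptor, was at 40.6 and 240 CPM. In neutrophil-like cells Fpr2 and Fpr1 were also lower in CCR2 KO (677 and 279 CPM, 605 and 269 CPM), and Tgfb1 was higher (111 and 290 CPM), as 3 of 7 compared. There 2.3% of all genes were lower and 6.46% higher. Among proteases and inhibitors related to SLPI, 2 of 3 were lower in CCR2 KO monocyte/Mφ-like cells, where 1.35% of all genes were. These were Wfdc21, of the same whey acidic protein family as Slpi, at 93.1 and 19.97 CPM (-2.22), and Prtn3, which encodes proteinase 3, at 37.4 and 8.04 CPM. In neutrophil-like cells 2 of 4 were lower (2.3% of all genes), Wfdc21 at 3428 and 889 CPM (-1.95) and Stfa1 at 57.4 and 18.6 CPM (-1.63).

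From 24 h to 72 h in WT monocyte/Mφ-like cells, the lists went different ways. Of all genes, 6.68% were lower and 6.82% higher. Lcn2 was at 262 and 1.62 CPM (-7.34) and C3 at 181 and 60.6 CPM, while Cp was at 8.61 and 30.8 CPM, so 2 of 3 other acute phase genes were lower and 1 was higher. Il1a (59.4 and 4.55 CPM) and Il6 (31.97 and 10.6 CPM) were lower as 2 of 5 cytokines. Cebpa, at 61.8 and 165 CPM (1.42), and Nfkbiz, at 109 and 289 CPM (1.41), were higher as 2 of 10 signalling and transcription factor genes. At 72 h Hmox1, which encodes the haem-degrading enzyme heme oxygenase 1, was at 173 CPM in WT and 738 CPM in CCR2 KO (2.10).

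The members resembled different genes across 19 profiles, each being a class of at least 20 cells in 1 library. The measure was the Pearson correlation of log2(CPM + 1) over these profiles, which share libraries and depth, among 9321 genes with the members left out, and it is given as a description. Saa3 was most like Chil3 (0.951), Fam20c (0.899), Gm21188 (0.889), Slc11a1 (0.886) and Gm36161 (0.879). Saa1 was most like Marco (0.945), Cxcl13 (0.795), Alox15 (0.746), Gja1 (0.727) and Pfkl (0.610), a pattern resting on 1 library. For Orm1 they were Nos2 (0.827), Sod2 (0.768), Lipg (0.718), Ngp (0.703) and Pfkfb3 (0.694). The cells kept held 248 Orm1 UMIs in WT at 24 h and at most 3 in any other library, so this pattern too rests on 1 library. Hp was most like Fpr2 (0.948), Slfn4 (0.946), Clec4d (0.945), Ninj1 (0.942) and Wfdc21 (0.941). Lrg1 shared 3 of these, with P2ry13 (0.958), Samd8 (0.931), Ninj1 (0.920), Clec4d (0.915) and Wfdc21 (0.911). Among the genes most like Slpi were Gngt2 (0.883), Ankrd33b (0.882), Sfxn5 (0.874) and Rybp (0.871). Among the members themselves, Hp and Lrg1 were closest (0.959), then Hp and Slpi (0.826) and Slpi and Lrg1 (0.761), while Saa3 and Hp were at 0.685.

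Within single monocyte/Mφ-like cells of WT at 24 h, the rare members came with the common ones. All 16 cells with Orm1 UMIs also had Saa3 and Hp UMIs, and 10 of 11 cells with Saa1 had Saa3. Of cells without Orm1, 54.4% had Saa3 and 63.5% had Hp, and 54.7% of cells without Saa1 had Saa3. Median depths were 18541 UMIs with Orm1 and 14542.5 without. Of the Orm1 and Saa1 cells, 10 and 5 were among the 11 cells picked by their Saa3 share, so their Saa3 was fixed by that choice. Hp UMIs were found in 74.4% of 707 cells with Saa3 and in 51.1% of 579 without, whose median depths were 15803 and 13201 UMIs, and the part of depth in that difference was not tested.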

How the data were processed

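Transcripts of sorted CD45+ cells were counted cell by cell in 4 libraries, 1 per group, and groups were taken from the labels. The authors used 10x Genomics 3′ chemistry, Cell Ranger 3.0.2 and Seurat on GRCm38/mm10, and removed cells with few genes or more than 10% mitochondrial UMIs. The deposited values were raw UMI counts per gene and cell.

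Cells with at least 3 UMIs and 0.1% of UMIs from non-immune markers, no Ptprc and at most 3 Lyz2 UMIs were removed. The rest were clustered together in Python 3.11.15 with scanpy 1.11.5, leidenalg 0.10.2 and scipy 1.17.1 (2000 variable genes without the members, Ccr2 and subset genes, 30 principal components, 20 neighbours, resolution 1). Clusters were named from markers by the highest mean score (at least 0.5, with at least 3 markers at 20 CPM), and 179 cells stayed without a name. Names were rebuilt here, and any difference from the subsets of the study can stem from this. UMIs were summed per class and library. Intervals were exact Poisson for levels, exact Clopper-Pearson for shares and exact conditional binomial for ratios. A floor of 3 UMIs stood in for 0 in bounds. TMM factors came from edgeR 4.0.16 in R 4.3.3 as an alternative scaling. No test was made, since each group was 1 library. Code was tested on simulated data. All 6 members were named in every comparison, with the 5 most alike genes of each member of at least 200 UMIs, of which 1 is not reported here. The members, gene lists and rules were chosen with earlier results of these data known. The alternatives were TMM, no minimum level, a pseudocount of 5 CPM, cell-by-cell gating, a resolution of 2, libraries clustered alone, at most 5% mitochondrial UMIs, doublets of Scrublet removed, equal weight per cell, 5 top cells left out, non-immune cells kept and thinning to 500 UMIs. Those without the Cxcl13, Prg4 and Alox15 sub-cluster, a sub-cluster led by neutrophil genes or the Siglecf-high cluster, and with the WT class make-up, were added after seeing the data.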

Additional observations from a re-analysis of the deposited data

Results flagged for a closer look

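Hp and Lrg1 in monocyte/Mφ-like cells differed between CCR2 KO and WT in opposite directions at the 2 times. The log2 ratio of Hp was -2.14 at 24 h and 0.59 at 72 h, and that of Lrg1 was -0.29 and 0.36. With 1 library per group every library of one time moved one way and that of the other time the opposite way, and the difference between the times was not tested. Over the alternatives the 72 h ratio of Hp ranged from -0.12 to 1.90 and that of Lrg1 from -1.71 to 1.81, while the 24 h ratio of Hp ranged from -2.42 to -1.92 and that of Lrg1 from -1.86 to 0.54, so the opposite directions did not hold under every setting. Hp also moved in opposite directions from 24 h to 72 h in the same class, by -2.16 in WT and 0.57 in CCR2 KO, and this too was not tested. The CCR2 KO value ranged from -0.054 to 1.51.

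Members also had UMIs in cells outside the named classes. Cells without a class name, which entered only the levels over all cells, held 17 Saa3 and 14 Hp UMIs in CCR2 KO at 24 h, 45 Saa3 and 7 Hp UMIs in WT at 72 h, and 5 Hp UMIs in CCR2 KO at 72 h, above what a count of 0 allows. The cells removed for non-immune transcripts, which entered no reported level, held 7 Hp and 4 Slpi UMIs in CCR2 KO at 24 h, and 1913 Saa3 and 228 Hp UMIs in CCR2 KO at 72 h. Of the last, 1 cell of 61231 UMIs without a Ptprc UMI held 1888 Saa3 UMIs (3.08% of its UMIs) and all 228 of Hp, 2 Saa1 and 1 Orm1 UMIs, with 747 Dcn, 467 Col1a1 and 559 Col3a1 UMIs, genes of fibroblasts. All leukocytes kept from that library together held 156 Saa3 UMIs.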

How the results depend on the processing

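Of 133 values for counts of members, 118 stayed within 1.5 times the reported count, and 15 did not. The count of members called in monocyte/Mφ-like cells for CCR2 KO against WT at 24 h (3), for 72 h against 24 h in WT (3) and over all cells at 24 h (3) was 5 in each without a minimum level. For CCR2 KO against WT at 72 h (1) it was 2 with non-immune cells kept, with each cell weighted equally and without the 5 top cells, and 3 with at most 5% mitochondrial UMIs. For 72 h against 24 h in CCR2 KO (1) it was 2 with libraries clustered alone, with non-immune cells kept and without the 5 top cells, and 3 with at most 5% mitochondrial UMIs. In neutrophil-like cells at 72 h (1) it was 0 with equal weights, without the 5 top cells and without the Siglecf-high cluster. Over all cells at 72 h (4) it was 1 with the class make-up of WT. With non-immune cells kept, Saa3 turned to 2.13 in CCR2 KO against WT at 72 h and to 1.20 in 72 h against 24 h in CCR2 KO in monocyte/Mφ-like cells, and to 0.059 over all cells at 72 h. With the class make-up of WT, Slpi turned to -0.92 and Lrg1 to -0.41 at 24 h, and Slpi to -0.20 at 72 h. Of 681 other values, 420 lay within the interval of the reported one and the others outside it. Of all of these, 585 were ratios of members, and the sign turned in 40 of them, 6 where the reported difference had counted as 2-fold and 34 where it had not. The causes were not tested, apart from the cell of 1888 Saa3 UMIs. No paired analysis was possible because the groups share 1 replicate number only. Leaving out a replicate was not possible with 1 library per group. At the depth of CCR2 KO at 72 h, a count of 0 in monocyte/Mφ-like cells allows up to 1.84 CPM.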
